A study of Drosophila melanogaster with 18 samples.

Results

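The activity of wildtype and motif mutant mesodermal enhancers was measured in mef2:CD2- cells of Drosophila melanogaster embryos, in the 12 libraries that the labels give as mef2:CD2-, of 18 libraries in the series. These are the RNA and the DNA library of each of 6 collections, 3 in each of 2 weeks, paired by their collection day. Transgenic males from a pool of insertion lines, each carrying 1 sequence-tagged reporter at the same attP40 landing site, were crossed to mef2[IE-D5]:CD2 females. Embryos were collected for 2.25 h and aged for 11 h at 18 degrees, and cells without the rat CD2 surface marker were sorted. The Mef2-I-E D5 enhancer with the Hsp70 TATA box drives the marker in fusion-competent myoblasts, the muscle precursors that fuse to founder cells, so that the negative gate holds the other cells of the embryo, mesodermal or not. All 6 collections share the cross, the stage and the gate, and there is no treatment. The files count reporter tags and hold no gene of the cells themselves, so that the gate could not be checked against markers of fusion-competent myoblasts. Per the study, each experiment had its own population of parental flies, so that the collections of a week share their parents, and p-values over collections or tags measure the spread between these samples only.

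An enhancer is a stretch of DNA that binds transcription factors and raises transcription of a gene in particular cells, and mutating the sites of a factor asks what those sites contribute. Deaf1 is a DNA-binding protein first found as a cofactor of the homeotic factor Deformed, ZIPIC (CG7928) is a zinc finger protein of insulators that works with CP190, and Schlank is a ceramide synthase that carries a homeodomain. CG12236-PB is known mainly by its DNA binding motif. In each of 12 enhancers the motifs of 3 of these 4 factors were mutated, alone and in combination. A construct is named by its enhancer and a suffix, WT for wildtype, D for Deaf1, 1 for CG12236-PB, S for Schlank and 7 for ZIPIC, so that D1 lacks the sites of both Deaf1 and CG12236-PB. Constructs of 2 known mesodermal enhancers served as controls. The Act57B enhancer, of a muscle actin gene, was present with and without a site for Mef2, a central regulator of muscle differentiation. The BTub60D enhancer, of a mesodermal tubulin gene, was present as wildtype, without its site for Bagpipe, and without its sites for Bagpipe and Biniou, which are factors of the visceral mesoderm.

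The study places CBP2862 just upstream of fwd, which encodes a lipid kinase of the Golgi (chromosome 3L, 305393 to 319884 in Release 6 plus ISO1 MT), and ChIPCRM2847 in an intron of InR, the insulin receptor gene (chromosome 3R, 21570248 to 21619321). The Deaf1 mutants of these enhancers were the only single Deaf1 mutants called by both tests described below, and their changed sites are shown for that reason. In the first 385 bases of each element, which were compared here, CBP2862-D carried 5 substitutions, G12C, C61G, G111C, G128A and C202G. Positions are counted from 1 at the first enhancer base after the cloning site, and the changed base stands in capitals within a window of 21 bases.
CBP2862-WT at G12C: cccgttactcGtagcgtaagc
CBP2862-D at G12C: cccgttactcCtagcgtaagc
CBP2862-WT at C61G: aatgactaacCgaaacaaaga
CBP2862-D at C61G: aatgactaacGgaaacaaaga
CBP2862-WT at G111C: aatcggtgacGagtgagtctt
CBP2862-D at G111C: aatcggtgacCagtgagtctt
CBP2862-WT at G128A: tcttcttgccGaaaatatctc
CBP2862-D at G128A: tcttcttgccAaaaatatctc
CBP2862-WT at C202G: gctctggtttCgttgcatttg
CBP2862-D at C202G: gctctggtttGgttgcatttg

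ChIPCRM2847-D carried 3 substitutions in the same length, C38G, C194G and C307T, shown in the same way.
ChIPCRM2847-WT at C38G: agctgcgaaaCgagagtttgt
ChIPCRM2847-D at C38G: agctgcgaaaGgagagtttgt
ChIPCRM2847-WT at C194G: gctaaatttaCgagtacagtt
ChIPCRM2847-D at C194G: gctaaatttaGgagtacagtt
ChIPCRM2847-WT at C307T: caacagaaacCgaaacaaggg
ChIPCRM2847-D at C307T: caacagaaacTgaaacaaggg
All 8 bases changed in these Deaf1 mutants were the C or the G of a CG dinucleotide in the wildtype, and 1 of the 8 positions was still in a CG in the mutant. No substitution lay in the compared length of CBP2862-S, CBP2862-7 or ChIPCRM2847-1, and the rest of the elements was not analysed here.

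The RNA libraries held 560294 to 1201998 unique molecular identifiers (UMIs, random bases that mark single template molecules) and the DNA libraries 54038 to 248151, with higher totals in week 2 than in week 1 for both. Activity was taken as the fraction that a tag made up of all RNA UMIs of a collection over the fraction it made up of the paired DNA UMIs, so that 1 is the average of the pool and all levels are relative. An observation is a tag in a collection with at least 65 DNA UMIs and an RNA count, and constructs with at least 4 observations were kept. This left 1340 observations of 254 tags in 91 of 93 constructs, with a median of 383.5 DNA UMIs behind an observation (289.5 in week 1, 591 in week 2). Most constructs had few tags, with 1 tag for 6 of them, 2 tags for 28, 3 tags for 36 and 4 tags for 21. An 8-base UMI has a limited number of sequences, and the most counted tag of an RNA library used 49.7 to 81.6% of them, so that the highest RNA counts are bounded. ChIPCRM2000-7 and ChIPCRM5792-WT had too little DNA to be measured, and the ChIPCRM5792 mutants therefore have levels but no wildtype.

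Activity differed 425-fold between constructs, from 6.39 for ChIPCRM5432-7 to 0.0150 for ChIPCRM5857-D, with a median of 0.745. Of the 91 constructs, 33 lay above 1 and 14 below 0.1. The ChIPCRM5432 series took a median of 35.8% of the RNA UMIs of a collection (range 32.6 to 39.1%) and 11.7% of the DNA UMIs. At the other end, the ChIPCRM5857 series took 0.238% of the RNA UMIs and 6.82% of the DNA UMIs. In a mixed model of log2 activity, constructs accounted for 78.8% of the variance, tags within a construct for 6.66% (SD 0.59) and the remainder, between collections of a tag, for 14.5% (SD 0.88). Tag means of the same construct differed by a median of 1.66-fold over 85 constructs with several tags. In 8 of these the tags differed by over 5-fold, most in ChIPCRM5857-S, by 22.2-fold.

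**Figure D1:**
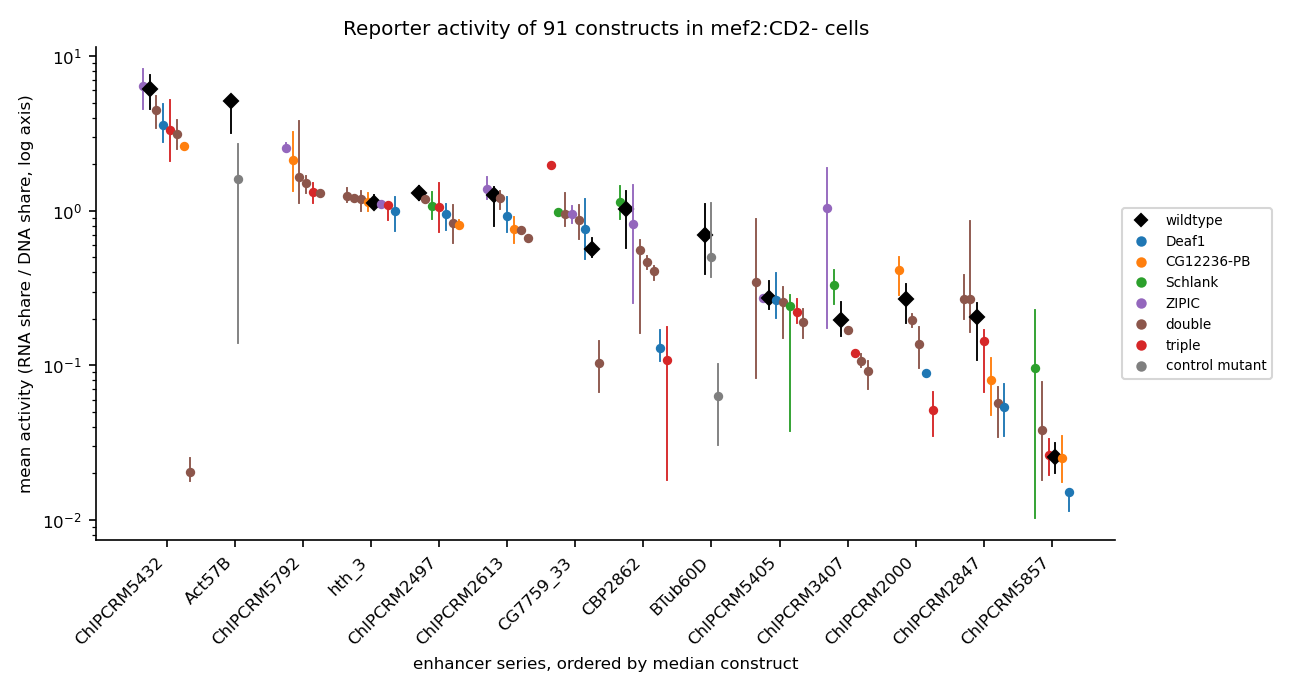
Mean activity of the 91 constructs (RNA share over DNA share, log axis) by enhancer series, with diamonds for wildtypes, points for mutants coloured by motif class, and lines from the lowest to the highest tag mean. ChIPCRM5432-D1, at 0.0203, lies apart from the rest of its series, and all ChIPCRM5857 constructs lie below 0.1.

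The most active wildtype enhancer was ChIPCRM5432, with 6.11 ± 3.30 (SD, n = 14 observations of 3 tags), followed by the muscle actin control Act57B_Mef2_WT, with 5.11 ± 2.45 (n = 20). ChIPCRM5432-WT measured 7.17, 5.32 and 3.35 in collections 1 to 3 (week 1) and 7.83, 7.95 and 4.81 in collections 4 to 6 (week 2). Act57B_Mef2_WT measured 6.87, 7.31, 2.92, 4.40, 7.54 and 2.66 in the same order. For both, collections 3 and 6 were the lowest, and their ranges overlapped.

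A middle group lay around the average of the pool. ChIPCRM2497-WT had 1.30 ± 0.323 (n = 12), ChIPCRM2613-WT 1.27 ± 0.527 (n = 20), hth_3-WT 1.12 ± 0.385 (n = 18) and CBP2862-WT 1.03 ± 0.806 (n = 5). The tubulin control BTub60D_WT had 0.697 ± 0.398 (n = 21) and CG7759_33-WT 0.562 ± 0.224 (n = 24). CBP2862-WT rested on the fewest observations. One of its tags was measured only in collections 1 and 2 (0.511 and 0.640) and the other only in collections 4 to 6 (2.44, 0.981 and 0.590), so that tag and week cannot be told apart in it. Without collection 4 its mean was 0.681, below that of BTub60D_WT.

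Lower means were those of ChIPCRM5405-WT with 0.271 ± 0.134 (n = 14), ChIPCRM2000-WT with 0.267 ± 0.266 (n = 11), ChIPCRM2847-WT with 0.206 ± 0.0915 (n = 11) and ChIPCRM3407-WT with 0.195 ± 0.152 (n = 17). The place of ChIPCRM2000-WT in this order rested on collection 4, at 0.719, without which its mean was 0.166, and it exceeded ChIPCRM2847-WT in 1 of 6 collections. ChIPCRM5857-WT was the least active, with 0.0253 ± 0.0130 (n = 18). Its collections ran from 0.0169 to 0.0347 and its 3 tags from 0.0200 to 0.0315, and neither range reached that of any other wildtype.

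Neighbours in this order were compared by an exact two-sided sign-flip permutation test of their log2 ratio over collections, in which 6 collections allow no p below 0.0312. Of 12 neighbouring pairs none was called at an adjusted p under 0.1 (0%). Pairs with CBP2862-WT had 5 collections, which allow no p below 0.0625. Even pairs at the lowest possible p were not called after adjustment, so the absence of calls does not show equal levels. In 3 pairs the higher enhancer stood above in 6 of 6 collections (exact permutation p = 0.0312, adjusted p = 0.125 each), and the tag means of these pairs did not overlap. Act57B_Mef2_WT exceeded ChIPCRM2497-WT by 1.90 ± 0.65 on the log2 scale (SD over collections). CG7759_33-WT exceeded ChIPCRM5405-WT by 1.25 ± 0.38, and ChIPCRM3407-WT exceeded ChIPCRM5857-WT by 2.79 ± 0.77. The other 9 pairs overlapped in their tag means and did not differ beyond the spread over collections.

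The 6 measured ChIPCRM5792 mutants all lay above 1, from 1.30 ± 0.326 for ChIPCRM5792-D7 (n = 12) to 2.55 ± 1.14 for ChIPCRM5792-7 (n = 18). ChIPCRM5792-1 had 2.12 ± 1.50 (n = 16), ChIPCRM5792-71 1.64 ± 0.970 (n = 19), ChIPCRM5792-D1 1.52 ± 0.531 (n = 23) and ChIPCRM5792-D71 1.31 ± 0.761 (n = 12). The single ZIPIC mutant stood above each of the 3 mutants without Deaf1 sites and above ChIPCRM5792-71, by 1.56-fold to 1.96-fold (exact permutation tests, adjusted p 0.00289 to 0.0132). These tests take observations, which repeat the same tags, as units, and tags were not tested. The ChIPCRM5792-7 tags lay at 2.43 to 2.74, below the highest ChIPCRM5792-71 tag at 3.83. ChIPCRM5792-7 was above ChIPCRM5792-71 in every collection but collection 6, at 1.16 against 2.51.

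Each mutant was compared with the wildtype of its enhancer. Following the study's design, all observations of a series, here of both weeks together, were first compared by a Kruskal-Wallis test with 100000 permutations. Where its p was under 0.1, pairs of constructs were compared by an exact two-sided permutation test of ranks, with Benjamini-Hochberg adjustment over the pairs of the series, and a mutant was called at an adjusted p under 0.1. A tag returns in several collections and its observations are not independent. The comparison with the wildtype was therefore repeated with limma on 1 mean per tag, adjusted over all mutants. Pairs of mutants were compared with observations as units only. With observations as units, 38 of 72 mutants were called (52.8%), 30 lower (41.7%) and 8 higher (11.1%) than their wildtype. With tags as units, 9 were called (12.5%), 7 lower (9.72%) and 2 higher (2.78%), and all 9 were among the 38. Of these 9, 8 had 2 or more tags. A mutant lay on the same side of its wildtype in every collection compared in 29 of 72 cases (40.3%). With 1 collection left out in turn, 25 of the 38 calls held each time and 13 were lost at least once. The median fold change over all 72 mutants was 0.803.

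**Figure D2:**
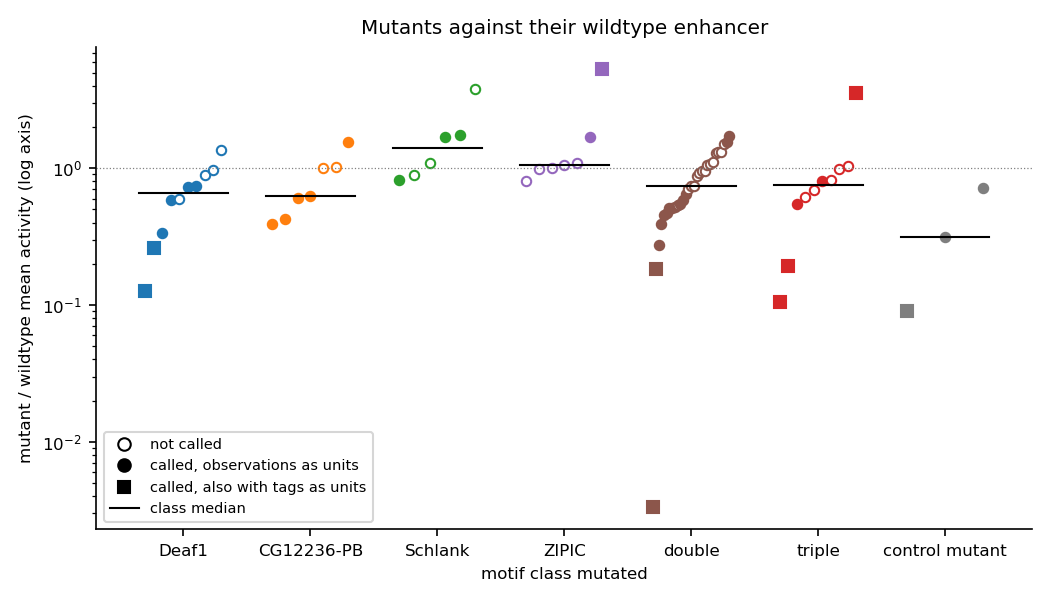
Mean activity of each of 72 mutants over that of its wildtype (log axis) by motif class, with open circles for mutants not called, filled circles for those called with observations as units, squares for those also called with tags as units, and a line at the class median. The medians lie at 0.662 for Deaf1, 0.623 for CG12236-PB, 1.40 for Schlank and 1.05 for ZIPIC.

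All 3 control mutants were lower than their wildtypes with observations as units. Without its Mef2 site, the Act57B enhancer had 1.60 ± 1.80 (n = 20), a fold change of 0.314 (exact permutation test, adjusted p = 7.57e-07). It measured 1.85, 1.59, 1.64, 0.397, 1.46 and 2.71 in collections 1 to 6, below the wildtype in 5 and at 1.02 times its level in collection 6. Its tags spread from 0.140 to 2.69 without overlapping those of the wildtype, and over tags the log2 fold change of -2.79 ± 1.11 (SE) was not called (limma, adjusted p = 0.151).

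The BTub60D enhancer without Bagpipe and Biniou sites had 0.0630 ± 0.0328 (n = 15) against 0.697, a fold change of 0.0905 (exact permutation test, adjusted p = 5.39e-10). Collection values lay between 0.0414 and 0.0798, against 0.450 to 0.981 in the wildtype, with no overlap. Over tags the log2 fold change was -3.37 ± 0.52 (limma, adjusted p = 0.000961). Loss of the Bagpipe site alone gave 0.501 ± 0.340 (n = 18), a fold change of 0.719 that was called with observations (exact permutation test, adjusted p = 0.0883) and not with tags as units (limma, adjusted p = 0.733). The construct without both factors' sites was 7.95-fold below the one without the Bagpipe site (exact permutation test, adjusted p = 8.67e-06).

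Mutation of Deaf1 sites alone was measured in 10 enhancers and lowered activity where it was called. Of the 10 mutants, 9 lay below their wildtype, with a median fold change of 0.662, and 6 were called lower and none higher with observations as units, against 41.7% lower over all mutants. CBP2862-D changed most, to 0.130 ± 0.0616 (n = 18), a fold change of 0.126 (exact permutation test, adjusted p = 6.4e-05). It measured 0.0909, 0.159, 0.0605, 0.166, 0.147 and 0.155 in collections 1 to 6, all below the lowest wildtype value of 0.511. Its 3 tags, at 0.107, 0.114 and 0.168, lay below both wildtype tags, and the log2 fold change over tags was -2.85 ± 0.82 (limma, adjusted p = 0.0267).

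ChIPCRM2847-D, with the second set of windows shown above, had 0.0538 ± 0.0394 (n = 18) against 0.206, a fold change of 0.261 (exact permutation test, adjusted p = 9.1e-06). It measured 0.0405, 0.0390 and 0.0254 in week 1 and 0.0645, 0.0768 and 0.0768 in week 2, all below the lowest wildtype collection of 0.134. The log2 fold change over tags was -2.03 ± 0.66 (limma, adjusted p = 0.0588), and this call was lost without collection 1 (adjusted p = 0.176) or without collection 3 (adjusted p = 0.127).

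The other Deaf1 mutants changed less. ChIPCRM2000-D (fold change 0.335, 1 tag), ChIPCRM5432-D (0.586), ChIPCRM2613-D (0.731) and ChIPCRM2497-D (0.736) were called lower with observations as units and not over tags. ChIPCRM2000-D lay above its wildtype in collections 1 and 3, at a ratio of 1.16 in each, and its mean log2 ratio was -0.35 in week 1 and -2.13 in week 2. Without collection 4, in which the wildtype was highest, the fold change became 0.508 and the call was lost (exact permutation test, adjusted p = 0.124), as it was without collection 2, 5 or 6. CG7759_33-D was the single Deaf1 mutant above its wildtype, at a fold change of 1.36 that was not called (exact permutation test, adjusted p = 0.269). ChIPCRM5857-D lay below its wildtype in 6 of 6 collections, at a fold change of 0.594, in a series that did not pass the Kruskal-Wallis test (permutation p = 0.185).

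Mutants of CG12236-PB sites, measured in 7 enhancers, had a median fold change of 0.623. With observations as units 4 were called lower and 1 higher (71.4% called, against 52.8% over all 72 mutants). Over tags none was called (limma, with 3 of the 7 at an unadjusted p under 0.05). ChIPCRM2847-1 was the lowest, at 0.0808 ± 0.0415 (n = 14) and a fold change of 0.392 (exact permutation test, adjusted p = 0.00031). It lay below the wildtype in 6 of 6 collections, at ratios of 0.205 to 0.522, while its highest tag (0.111) reached the lowest wildtype tag (0.108), and over tags it was not called (limma, adjusted p = 0.151). ChIPCRM5432-1 (0.426), ChIPCRM2613-1 (0.603) and ChIPCRM2497-1 (0.623) were also lower in 6 of 6 collections. The ChIPCRM5432-1 tags had medians of 1556 and 2139.5 DNA UMIs, against 77.5 to 654 for the tags of its wildtype. Whether the bound on the highest RNA counts contributed to its fold change was not tested. ChIPCRM2000-1 was the highest, at 0.413 ± 0.285 (n = 13) and a fold change of 1.55 (exact permutation test, adjusted p = 0.0586, and limma over tags, adjusted p = 0.203). Without collection 4 this was 2.49 (exact permutation test, adjusted p = 0.0228), and the call was lost without collection 2, 5 or 6.

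Of 6 Schlank site mutants 4 lay above their wildtype, with a median fold change of 1.40. With observations as units 2 were called higher and 1 lower (50% called, against 52.8% over all 72 mutants). Over tags none was called (limma, with 1 of 6 at an unadjusted p under 0.05). CG7759_33-S was higher in 6 of 6 collections, at 0.980 ± 0.163 (n = 12) and a fold change of 1.74, and its collection values of 0.745 to 1.11 overlapped the wildtype's 0.391 to 0.815. ChIPCRM3407-S, at a fold change of 1.70, was the other one called higher, and CBP2862-S, at 1.10, was not called. ChIPCRM2497-S had the lowest fold change, 0.818 (exact permutation test, adjusted p = 0.0353, and limma over tags, adjusted p = 0.554). ChIPCRM5857-S had the highest, 3.80, without a call (exact permutation test, adjusted p = 0.955). Its mean rested on 1 of 3 tags, which stood at 0.229 beside 0.0103 and 0.0212.

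ZIPIC site mutants, measured in 7 enhancers, had a median fold change of 1.05. With observations as units 2 were called higher and none lower (28.6% called, against 52.8% over all 72 mutants). ChIPCRM3407-7 had the largest rise of any mutant, to 1.04 ± 1.08 (n = 12) against 0.195, a fold change of 5.31 (exact permutation test, adjusted p = 0.0538, and limma over tags, log2 fold change 2.13 ± 0.74, adjusted p = 0.0947). It measured 0.745, 0.999, 0.530, 1.34, 0.856 and 1.75 in collections 1 to 6, above the wildtype in each. Its 2 tags stood far apart, at 0.174 and 1.90, the lower of them inside the range of the wildtype tags. Without its higher tag the fold change was 0.894, so that the direction rests on 1 tag. CG7759_33-7 was the other ZIPIC mutant called higher, at 0.954 ± 0.396 (n = 10) and a fold change of 1.70. CBP2862-7 had the lowest fold change, 0.800 (exact permutation test, adjusted p = 0.335).

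Among 29 double mutants, 20 lay below and 9 above their wildtype, with a median fold change of 0.735. With observations as units 12 were called lower and 2 higher (48.3% called, against 52.8% over all 72 mutants). ChIPCRM5432-D1, without the sites of Deaf1 and CG12236-PB, had the largest change of any mutant. It measured 0.0119, 0.0207 and 0.0157 in week 1 and 0.0189, 0.0214 and 0.0335 in week 2, where the wildtype lay between 3.35 and 7.95. Its mean of 0.0203 ± 0.00861 (n = 18) was 300-fold below the wildtype (exact permutation test, adjusted p = 1.19e-08, and limma over tags, log2 fold change -8.12 ± 0.35, adjusted p = 9.28e-13). On read counts in place of UMI counts the wildtype was 2297-fold above it. All 3 tags lay between 0.0177 and 0.0250. The triple mutant ChIPCRM5432-D71, which lacks the ZIPIC sites as well, had 3.34 ± 1.86 (n = 16), 164-fold above the double mutant (exact permutation test, adjusted p = 3.18e-09) and 0.548 of the wildtype.

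CG7759_33-D7, without Deaf1 and ZIPIC sites, was the other double mutant called by both tests. It had 0.103 ± 0.0487 (n = 18), a fold change of 0.184 (exact permutation test, adjusted p = 3.36e-08, and limma over tags, log2 fold change -2.48 ± 0.33, adjusted p = 5.23e-05). Its collections lay between 0.0868 and 0.121, below the lowest wildtype collection of 0.391. All other mutants of this enhancer lay above the wildtype, the double mutant CG7759_33-S7 at a fold change of 1.71 (exact permutation test, adjusted p = 0.00863, and limma over tags, adjusted p = 0.185), the highest of the double mutants.

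The 10 triple mutants had a median fold change of 0.751. With observations as units 4 were called lower and 1 higher (50% called, against 52.8% over all 72 mutants). CBP2862-DS7 was the lowest, at 0.108 ± 0.0864 (n = 17) and a fold change of 0.105 (exact permutation test, adjusted p = 7.59e-05, and limma over tags, log2 fold change -3.78 ± 0.82, adjusted p = 0.00359). Its collections measured 0.0698, 0.129, 0.0700, 0.205, 0.0860 and 0.121. This level did not differ from that of CBP2862-D beyond the spread of observations (ratio 0.833, exact permutation test, adjusted p = 0.41). The doubles CBP2862-DS and CBP2862-D7 lay between CBP2862-D and the wildtype, 3.12-fold and 4.29-fold above CBP2862-D (exact permutation tests, adjusted p 8.47e-09 and 1.15e-06). These tests take observations as units and were not repeated over tags. The CBP2862-DS tags (0.358 to 0.436) lay above those of CBP2862-D (0.107 to 0.168). The CBP2862-D7 tags stood at 0.162, 0.599 and 0.646, the lowest of them within the CBP2862-D range.

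ChIPCRM2000-D71 had 0.0512 ± 0.0365 (n = 12) against 0.267, a fold change of 0.192 (exact permutation test, adjusted p = 0.000337, and limma over tags, log2 fold change -2.15 ± 0.40, adjusted p = 0.00758). It lay below the wildtype in 6 of 6 collections, at ratios of 0.108 to 0.478. CG7759_33-DS7 was the only triple mutant called higher, at 1.98 ± 0.377 (n = 6) and a fold change of 3.52 (exact permutation test, adjusted p = 6.74e-06, and limma over tags, log2 fold change 1.91 ± 0.48, adjusted p = 0.0142). It measured 1.89, 2.21, 1.48, 1.61, 2.30 and 2.38, above the highest wildtype collection of 0.815, and 19.1-fold above CG7759_33-D7 (exact permutation test, adjusted p = 2.31e-05). This construct had a single tag, so that its spread between tags is not known, and the fit over tags takes it to vary like those of the other constructs.

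Among doubles and triples, the 29 with Deaf1 sites mutated had a median fold change of 0.695 and the 10 with Deaf1 sites intact had 0.736, a difference that was not tested. By enhancer, the mutants of hth_3 stayed close to their wildtype, with fold changes of 0.885 to 1.12, and those of ChIPCRM5405 with 0.705 to 1.28. Neither series passed the Kruskal-Wallis test (permutation p = 0.825 and 0.686), and no mutant in them was called. With observations as units, all called mutants of ChIPCRM5432, ChIPCRM2497, ChIPCRM2613, ChIPCRM2847 and CBP2862 were lower, while 5 of the 6 called mutants of CG7759_33 were higher. Over tags 0 were called in ChIPCRM2497 and in ChIPCRM2613, 1 each in ChIPCRM5432 and ChIPCRM2847, and 2 each in CBP2862 and CG7759_33. The mutants of a series share the same wildtype, so their directions are not independent.

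To ask whether motifs act independently, 24 double mutants were set against the product of the fold changes of their single mutants, with tags as units in a limma fit. Of these, 10 lay below and 14 above the product, and 3 were called (12.5%), all below it. With observations as units 7 were called, 4 below and 3 above the product. ChIPCRM5432-D1 was 90.0-fold below its product of 0.324 (log2 difference -6.49 ± 0.48, limma, adjusted p = 4.11e-07), and 188-fold on read counts (log2 difference -7.55). This product includes the ChIPCRM5432-1 tags described above. In CG7759_33-D7 the singles lay above the wildtype, at 1.21 and 1.64 in this fit, and the double mutant was 11.0-fold below their product (log2 difference -3.46 ± 0.51, limma, adjusted p = 0.000253). In ChIPCRM3407-S7 the product was 9.56 and the double mutant 15.6-fold below it (log2 difference -3.96 ± 1.06, limma, adjusted p = 0.0244), a product that includes the ChIPCRM3407-7 tags described above.

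Above the product, ChIPCRM2847-D1 (log2 difference 1.85), CBP2862-D7 (2.19) and CBP2862-DS (1.44) lay furthest among pairs with an unadjusted p under 0.05 and were not called (limma, adjusted p 0.103, 0.117 and 0.102). With observations as units all 3 were called above it (limma, adjusted p 0.00541, 0.000607 and 0.00541). ChIPCRM2847-D1 had 0.0568 ± 0.0367 (n = 19), close to the 0.0538 of ChIPCRM2847-D. Without collection 4 the fold change of CBP2862-DS was 0.626, against 0.392 with all collections.

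**Figure D3:**
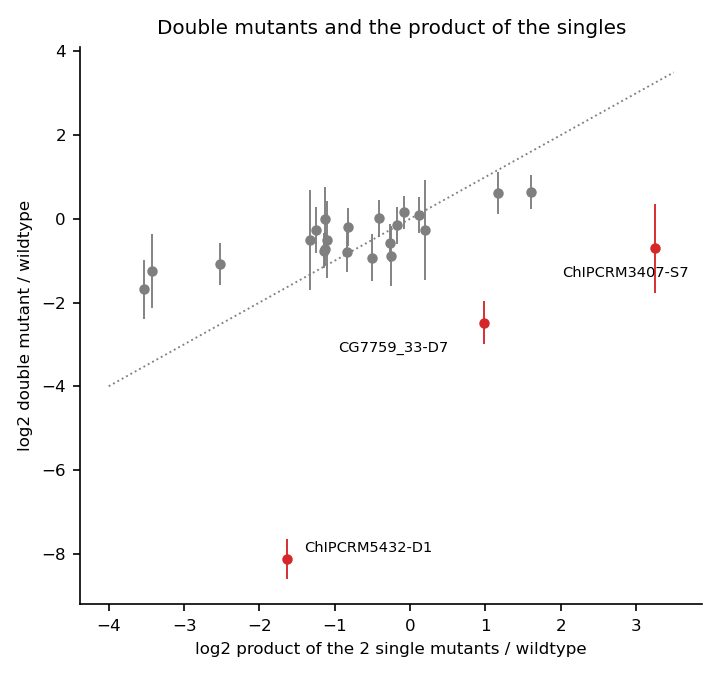
Log2 fold change of 24 double mutants (vertical) against the log2 product of the single mutants (horizontal), tags as units, with the SE of the difference as bars and a dotted line where both are equal. The called pairs, in red, lie below the line, ChIPCRM5432-D1 90.0-fold, ChIPCRM3407-S7 15.6-fold and CG7759_33-D7 11.0-fold.

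The rank order of constructs was similar from collection to collection, while the levels of single constructs varied. Spearman's rho over constructs, which share tags and are not independent, was 0.857 to 0.961 in 6 pairs of collections of the same week (median 0.932) and 0.875 to 0.939 in 9 pairs from different weeks (median 0.906). Over 87 constructs measured in all 6 collections, the highest collection exceeded the lowest by a median of 2.40-fold, and by up to 15.6-fold in ChIPCRM5857-1. Collection 3 had the fewest DNA UMIs per observation (median 193) and collection 6 the most (870). The median construct stood at -0.23 on the log2 scale in collection 3 and at 0.22 in collection 6, relative to its median over collections.

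**Figure D4:**
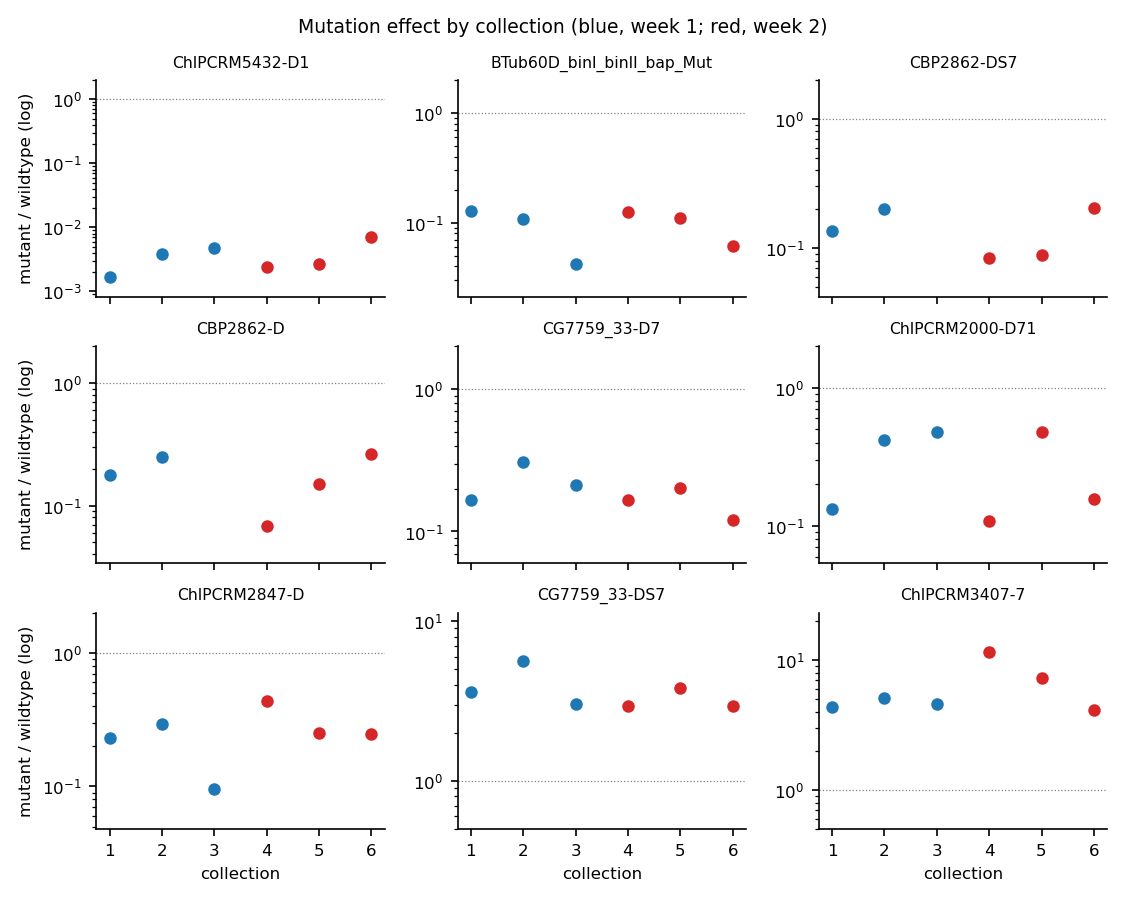
Mutant over wildtype activity (log axis) in each collection for the 9 mutants called by both tests, with collections of week 1 in blue and of week 2 in red and a dotted line at 1. The 7 lower mutants lie below the line and CG7759_33-DS7 and ChIPCRM3407-7 above it in every collection compared, and collection 3 is missing for CBP2862, whose wildtype was not measured there.

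Between weeks, none of 90 constructs was called at an adjusted p under 0.1 (0%; edgeR's quasi-likelihood test, smallest adjusted p = 0.285), and 14 had an unadjusted p under 0.05. DESeq2 called none, with 18 at an unadjusted p under 0.05. In the edgeR fit, on UMI counts summed over the tags of a construct, the median absolute log2 difference was 0.31, and 5 constructs differed by over 2-fold. Means over observations weigh the tags otherwise, so their ratios do not equal these differences. ChIPCRM2000-D1, for example, went from a mean of 0.0633 to 0.209 at a fitted log2 difference of 0.98. BTub60D_bap_Mut had the largest difference in the fit (log2 difference -1.30, edgeR, adjusted p = 0.285). Its mean went from 0.650 in week 1 to 0.352 in week 2, with 0.0866 in collection 4. ChIPCRM2000-1 went from 0.196 to 0.548 (log2 difference 1.24, adjusted p = 0.285), and ChIPCRM5405-D7 from 0.423 to 0.263 (log2 difference -1.19, adjusted p = 0.292). In ChIPCRM2000-1 all 3 collections of week 2 (0.411 to 0.603) lay above those of week 1 (0.137 to 0.250). The weeks overlapped in BTub60D_bap_Mut and ChIPCRM5405-D7.

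Effects of mutations were compared in the same way, as the log2 ratio of mutant to wildtype in each collection. None of 71 differed between weeks at an adjusted p under 0.1 (0%; limma, smallest adjusted p = 0.374), and 5 had an unadjusted p under 0.05. The median absolute difference was 0.33. The direction was the same in both weeks for 58 of 71 mutants. Each week was also tested alone, where fewer observations remain. In week 1, 24 of 58 mutants were called, and in week 2, 15 of 57, with 12 in common, which is 50% of the calls of week 1 and 80% of those of week 2. All 12 had the same direction, and among them were ChIPCRM5432-D1, CG7759_33-D7, ChIPCRM2000-D71, ChIPCRM2847-D and the control mutants Act57B_Mef2_Mut and BTub60D_binI_binII_bap_Mut.

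**Figure D5:**
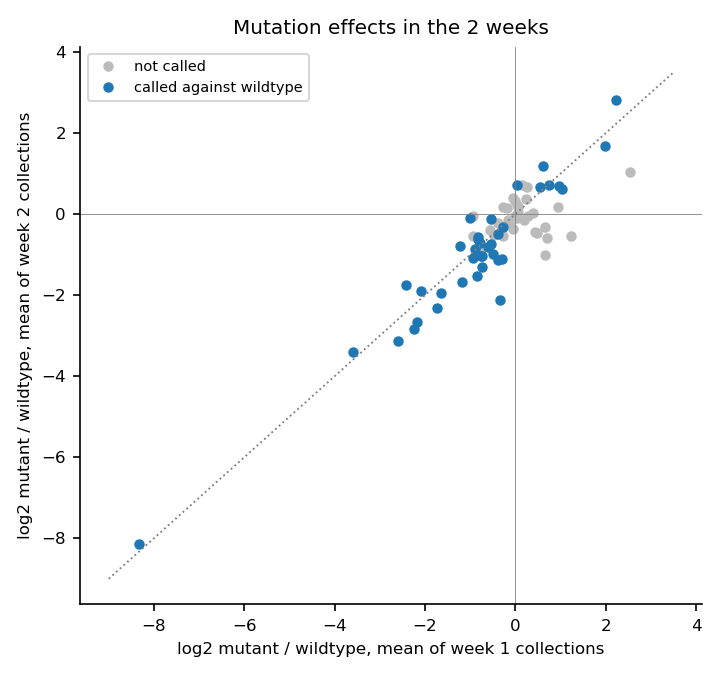
Log2 ratio of mutant to wildtype as the mean of the week 2 collections (vertical) against the mean of the week 1 collections (horizontal), for 71 mutants, with a dotted line where both are equal. Of the 71 mutants 58 lie on the same side of 0 in both weeks, and the mutants in blue are those called against wildtype on the observations of both weeks together.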

How the data were processed

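RNA and DNA were purified together from sorted cells, and reporter tags were amplified with an 8-base UMI. Per the labels' processing notes the authors used cutadapt 1.14, Bowtie and R 3.5.1, and the deposited files hold UMI counts and read counts per tag and construct, not normalized. Reads were aligned to the tags with up to 2 mismatches, per the study's methods.

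Activity, the ratio of RNA to DNA share, was computed here from the deposited UMI counts with Python 3.11.15, pandas 2.3.3 and scipy 1.17.1. Of 1697 tags listed in a collection, 354 fell below 65 DNA UMIs and 2 had no RNA count. The study words its minimum of 65 as DNA read counts, so the filter on UMIs may be stricter. RNA and DNA were paired by collection day: the deviations of a construct correlated between the libraries of a collection (r = 0.432 to 0.612 over 90 constructs), best with their own in 6 of 6. For tags as units, the log2 activity of a tag was centred on the median of its collection and averaged, and constructs were compared with limma 3.58.1 in R 4.3.3. Levels between weeks were compared with edgeR 4.0.16 on UMI counts summed per construct, with a term per collection and at least 10 counts in every library, and DESeq2 1.42.0 was an alternative. The mixed model used lme4 1.1.37. Calls were made at an adjusted p under 0.1, as in the study's design, whose Conover-Iman test was replaced by exact permutation because some constructs had under 10 observations. The permutation test of ranks and the main limma and edgeR fits were checked on simulated data. The planted changes were larger than most effects reported here, so the check does not cover small effects. The sign-flip test, Dixon's test and DESeq2 were not.

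Named with full statistics were mutants called by both tests, the lowest and highest of each motif class, and double mutants called off the product. So were the 3 largest differences between weeks in the edgeR fit. Constructs and lists were chosen with earlier results of these data known. Base substitutions were read from the study's designed sequences, and gene positions from RefSeq's annotation of Release 6 plus ISO1 MT. No column of other samples was used.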

Additional observations from a re-analysis of the deposited data

Results flagged for a closer look

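In 33 constructs with 4 or more collections, a collection far from the others of the same construct was looked for with Dixon's test. These were the wildtypes, the control constructs and the constructs named with full statistics, and other constructs in the text were not examined. For normally distributed values chance gives about 5% of such groups, and 5 of the 33 constructs were found. The test took activities without logs, a scale on which high values stand out more readily than low ones. The 5% is therefore only a rough guide here. CBP2862-WT measured 2.44 in collection 4 and 0.511 to 0.981 in its other collections, ChIPCRM2000-WT measured 0.719 in collection 4 and 0.0659 to 0.258 in the others, ChIPCRM2497-WT measured 1.61 in collection 5 and 1.17 to 1.29 in the others, ChIPCRM3407-WT measured 0.427 in collection 6 and 0.116 to 0.197 in the others, and CBP2862-7 measured 1.66 in collection 6 and 0.416 to 0.856 in the others. All 5 values were high, and 4 of them were of wildtypes, against which every mutant of the series was compared. What set these values was not tested.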

How the results depend on the processing

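With observations as units the 38 calls became 31 at 130 DNA UMIs, 37 at 20, 34 with at least 6 observations, 36 on read counts, 39 with UMI collisions corrected and 39 when the Conover-Iman p came from a t distribution. With collection as a replicate block 38 were called, and with collections as units (replicate block) 36. Week 1 alone gave 24 and week 2 alone 15, with fewer observations, and leaving out 1 collection gave 29 to 34. With tags as units the 9 calls became 10 with no replicate block, 11 on read counts, 13 with the log2 of the mean activity, 14 in week 1 alone, 8 in week 2 alone, 8 with at least 2 tags, and 7 to 14 without 1 collection, the highest without collection 6. For constructs between weeks, counts were 0 without the replicate block, 1 with no filter on low counts, 2 on read counts, 3 with collisions corrected, and 0 to 5 without 1 collection (3 without collection 5 and 5 without collection 6). Mutation effects between weeks gave 0 to 2 calls without 1 collection (1 without collection 2 and 2 without collection 4) and 0 in the other alternatives. For double mutants off the product, the 3 calls became 5 with collisions corrected, 5 on read counts, 7 with observations as units, and 3 to 8 without 1 collection (6 without collection 5 and 8 without collection 6). Causes were not tested.

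No call with observations as units changed direction in these alternatives, which do not leave out single tags. Without its higher tag ChIPCRM3407-7 fell to 0.894, as given above. Calls were lost without 1 collection for 13 mutants, most often for BTub60D_bap_Mut and ChIPCRM2000-D1, each in 5 of 6 cases. Without collection 4, in which 2 wildtypes stood high, CBP2862-S7 moved from 0.453 to 0.696 (exact permutation test, adjusted p = 0.186) and ChIPCRM2000-D1 from 0.511 to 0.809 (adjusted p = 0.205). Of the 9 mutants called by both tests, 2 lost a call, ChIPCRM2847-D over tags as given above, and ChIPCRM3407-7, with observations in week 2 alone and without collection 3 (adjusted p up to 0.461) and over tags with the log2 of the mean activity, in week 2 alone and without collection 1, 2, 3 or 4 (limma, adjusted p up to 0.137). CBP2862-WT had too few observations for a test in either week alone. Few tags per construct and few DNA UMIs limit the precision.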

Other observations

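Both constructs outside all comparisons had fewer than 4 observations with enough DNA. ChIPCRM5792-WT was listed with 3 tags, 122 DNA UMIs over all collections, at most 53 in a listing, and 2710 RNA UMIs. ChIPCRM2000-7 was listed with 3 tags, 384 DNA UMIs, of which 240 in a single listing, and 1007 RNA UMIs. Counting error in such DNA counts is large, and no activity is given.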
